A study of Mus musculus with 24 samples.

Results

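IgM and IgD heavy chain transcripts were followed in B cell receptor (BCR) libraries from mouse spleen. An entry, which is 1 row of a deposited table, was kept when its V and J segments were both of the heavy chain locus, its CDR3 amino acid sequence held letters only, and its constant region was IGHM or IGHD. This left 405431 entries, 371420 of IgM and 34011 of IgD, out of 583846 heavy chain entries kept by the same rule for any constant region and 1154635 entries in all. The entries lay in 8 of the 24 libraries of the series. CDR3 is the loop where the V, D and J segments are joined, and entries that agree in CDR3 nucleotide sequence and in the names of V and J form 1 clonotype here.

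The mice were of the strain BALB/c, kept specific pathogen free. The tumour model used mice 8 weeks old that received CT-26, a colon carcinoma cell line of the same strain, into the right side. The tissue is given as spleen and the cell type as splenocyte, with no sorting named. There were 4 BCR libraries titled control and 4 titled CT-26, and 4 RNA-seq libraries of each title. The treatment field contradicts the titles: libraries titled control carry injection of CT-26 cells as their treatment, and libraries titled CT-26 are given as healthy. The sets are therefore named by title, and no difference is read as tumour against healthy. All differences between sets are titled CT-26 minus titled control. Nothing in the labels says that the libraries of a set came from separate mice, so p-values measure the spread between libraries.

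IgM is the first antibody class a B cell makes. IgD is made from the same rearranged V, D and J segments by alternative splicing and termination of 1 long transcript, so that mature naive B cells carry both on their surface with the same CDR3. Follicular B cells carry much IgD, marginal zone and B-1 cells carry mostly IgM, and plasma cells stop making IgD while secreting IgM in large amounts. The constant region IGHD must not be confused with the D segments, whose names (IGHD1-1 and so on) begin with the same letters.

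The sequences below are CDR3 from the conserved cysteine codon to the tryptophan codon, 5′ to 3′. Capitals mark the end that matches a germline IGHJ segment of GRCm38 (GENCODE M21, strain C57BL/6). Clonotypes 1 to 8 met a rule on mean share, on the number of libraries and isotypes that held them, or on the V segments IGHV11-2 and IGHV12-3. Clonotypes 9 to 11 were chosen after their values were seen, because they were also among the largest in all 4 titled control libraries. Clonotypes 1, 3, 9, 10 and 11 show what the titled control libraries had in common.
Clonotype 1, IGHV4-1 with IGHJ2: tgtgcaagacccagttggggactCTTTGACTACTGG
Clonotype 3, IGHV4-2 with IGHJ2: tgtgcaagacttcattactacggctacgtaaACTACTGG
Clonotype 9, IGHV4-1 with IGHJ1: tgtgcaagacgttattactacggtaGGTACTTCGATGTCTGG
Clonotype 10, IGHV4-2 with IGHJ3: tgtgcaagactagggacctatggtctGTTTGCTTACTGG
Clonotype 11, IGHV4-2 with IGHJ3: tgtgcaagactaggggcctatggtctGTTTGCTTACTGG

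Clonotypes 10 and 11 differed by 1 base, A16G, counted from 1 at the first base of the cysteine codon, with the base of clonotype 10 first. Clonotype 2 had the highest mean share of both IgM and IgD reads in the titled CT-26 set, and it owed this to 1 library.
Clonotype 2, IGHV5-6-5 with IGHJ2: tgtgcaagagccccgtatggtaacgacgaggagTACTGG

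Clonotypes 4 to 7 were those found in the most libraries and isotypes, and clonotype 8 was the most read IgM clonotype of IGHV12-3. IGHV11 and IGHV12 are known from antibodies of B-1 cells that bind phosphatidylcholine. Clonotypes 4, 5 and 8 end in the same stretch of germline IGHJ1.
Clonotype 4, IGHV5-15 with IGHJ1: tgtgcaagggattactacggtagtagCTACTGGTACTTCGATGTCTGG
Clonotype 5, IGHV11-2 with IGHJ1: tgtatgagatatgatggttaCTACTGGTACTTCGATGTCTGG
Clonotype 6, IGHV5-4 with IGHJ3: tgtgcaagagatggtaactacGCTTACTGG
Clonotype 7, IGHV5-17 with IGHJ4: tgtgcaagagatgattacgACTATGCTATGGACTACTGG
Clonotype 8, IGHV12-3 with IGHJ1: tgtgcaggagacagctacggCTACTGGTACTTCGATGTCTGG

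The 4 titled control libraries shared their largest IgM clonotypes, and the titled CT-26 libraries did not. Clonotype 1, counted by its CDR3 under any V name, had 4229, 4584, 2480 and 4590 IgM reads in titled control libraries 1 to 4, and 0, 0, 1 and 0 in titled CT-26 libraries 1 to 4. Clonotype 3 had 4652, 4317, 2593 and 4280 IgM reads against 0, 0, 1 and 2. Clonotype 9 had 2435, 2067, 1486 and 2747 against 0, 0, 0 and 1, and the pair 10 and 11 was likewise at 1 read at most in every titled CT-26 library. Both members of that pair were abundant side by side, clonotype 10 with 2373, 2774, 1523 and 2688 IgM reads and clonotype 11 with 2125, 1911, 1241 and 2182. Clonotype 2 had 9370 IgM reads in titled CT-26 library 2, 64 and 9 in libraries 1 and 3, and 0 elsewhere.

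The widely found CDR3 had another pattern. Clonotype 5, of IGHV11, had 1198, 1014, 1729 and 1102 IgM reads in titled control libraries 1 to 4, against 2183, 846, 424 and 33 in titled CT-26 libraries 1 to 4. Clonotype 4 had 588, 561, 786 and 732 against 1745, 473, 586 and 927. Both were present in every library of both sets, with sets that overlapped. Clonotype 8 was found in 4 of the 8 libraries, with at most 8 IgM reads. IgD reads of these CDR3 were few: clonotype 5 had between 0 and 8 IgD reads in a library and clonotype 4 between 0 and 5.

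Sharing was compared over the 100 largest IgM CDR3 of each library. Within the titled control set, 99 to 100 of them were found in any other library of the set, against 12 to 61 within the titled CT-26 set and 10 to 34 between sets. Counting only those found at no less than 10% of their share in the first library, the numbers were 98 to 100, 4 to 13 and 5 to 22. The Morisita-Horn index, which is 0 for no overlap and 1 for equal shares, was 0.921 to 0.985 within titled control, 0.0173 to 0.0440 within titled CT-26 and 0.0154 to 0.0985 between sets. For IgD, with fewer reads, the index within titled control was 0.0929 to 0.298. The titled control libraries were not copies of each other within counting noise, since the chi-square per degree of freedom of their IgM reads was 8.89 to 11.4. It was 88.5 to 97.9 within the titled CT-26 set. Whether mice, RNA or a preparation step were shared was not tested, and it bears on every comparison of sets below. With the titled control libraries counted as 1 sample, no exact test between the sets can give a p below 0.4, and a test of IgM against IgD over the resulting 5 samples cannot go below 0.0625.

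**Figure D1:**
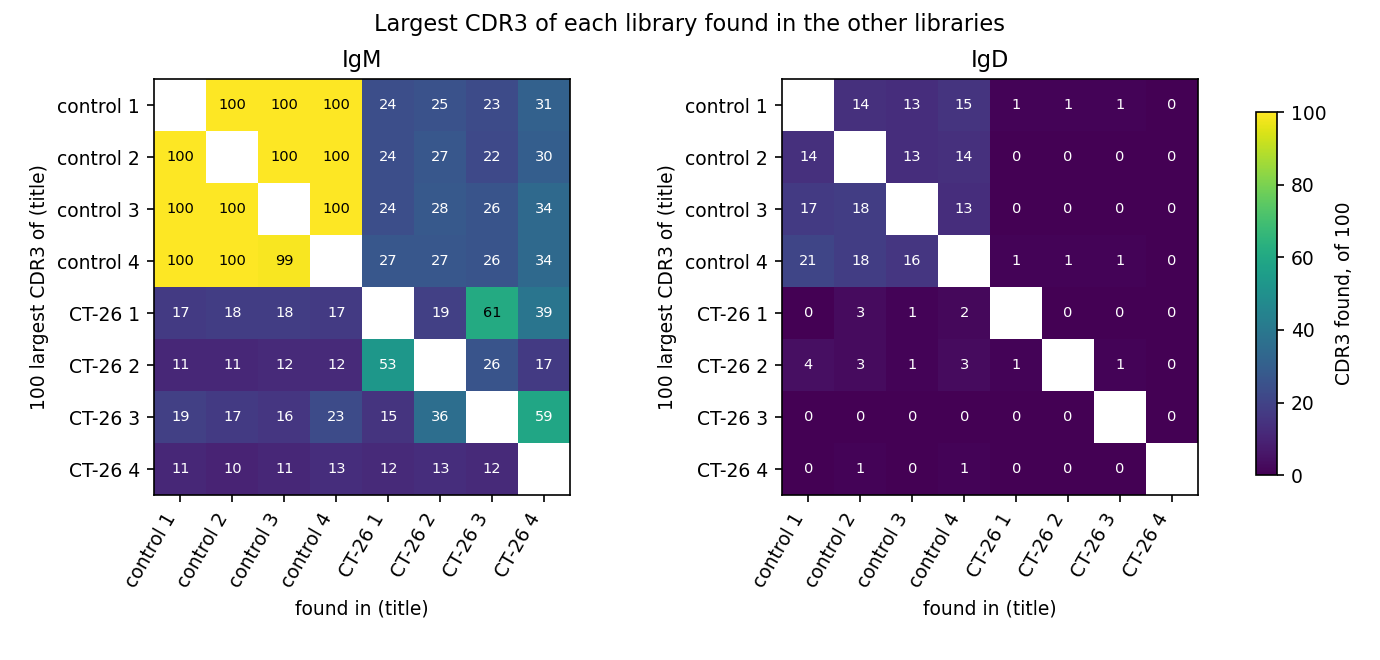
For each pair of BCR libraries, the heat maps give how many of the 100 largest CDR3 of the row library were found in the column library, for IgM on the left and IgD on the right. In IgM the 4 titled control libraries hold 99 to 100 of each other's 100, and no other pair exceeds 61; in IgD the highest number is 21.

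IgD was scarce relative to IgM in the titled CT-26 libraries. IgD reads per 100 IgM reads were 7.97, 7.42, 7.62 and 6.28 in titled control libraries 1 to 4 and 0.399, 0.581, 0.442 and 0.497 in titled CT-26 libraries 1 to 4. The means were 7.32 ± 0.729 and 0.480 ± 0.0787 (SD, n = 4 each), a 15.3-fold difference, and the sets did not overlap (exact permutation test, two-sided, p = 0.0286, the smallest that 4 against 4 libraries allow). The difference of -6.84 became -3.46 without clonotypes of 1 read and -15.8 without clonotypes found in more than 1 library, at the same exact p. From here on, ± gives the SD of 4 libraries except where another n is named.

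The read numbers behind these ratios differed in the same way. Titled control libraries held 118859 to 153105 IgM reads and 9056 to 12196 IgD reads. Titled CT-26 libraries held 155680 to 183885 IgM reads and 733 to 912 IgD reads. As a share of heavy chain reads with a constant region, IgD was 5.44% ± 0.582 in titled control and 0.294% ± 0.0391 in titled CT-26, 18.5-fold apart, while IgM was 74.2% ± 0.658 and 61.7% ± 5.58, 1.20-fold apart (adjusted p = 0.0286 for both by the exact permutation test). The lowest titled control share of IgD was 4.62% (exact 95% binomial interval 4.53 to 4.71) and the highest titled CT-26 share 0.349% (0.327 to 0.372). The reads carried no molecular identifiers, so these intervals cover counting error only. In bulk RNA, fewer IgD-bearing cells and less IgD transcript per cell cannot be told apart.

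**Figure D2:**
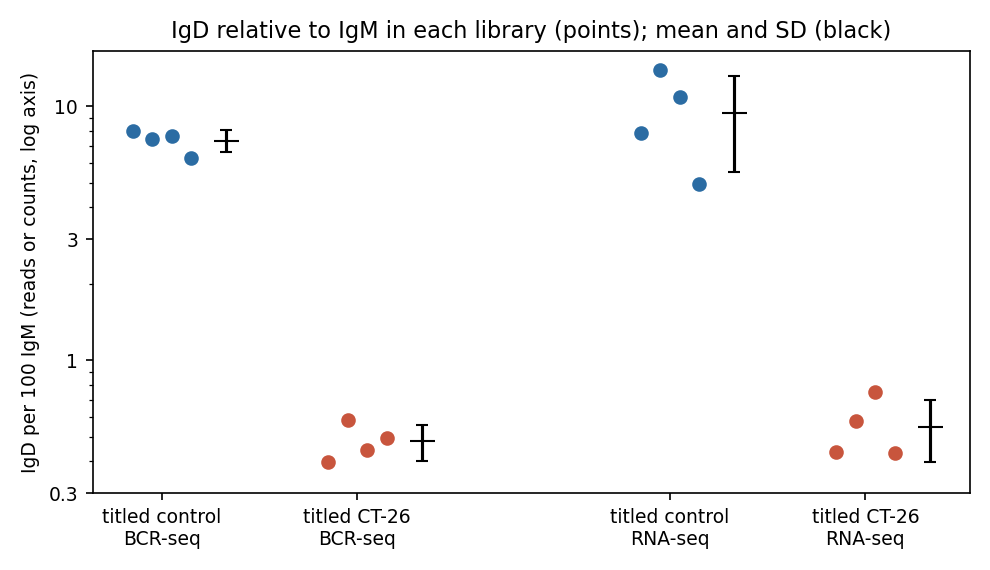
Points on the left show IgD reads per 100 IgM reads in each BCR library and points on the right Ighd counts per 100 Ighm counts in each RNA-seq library, by title set on a log axis, with the mean and SD of each set in black. In both assays the 4 titled CT-26 points lie below 1 and the 4 titled control points above it.

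The RNA-seq libraries, which were made from all transcripts, gave the same order. Ighd, the IgD constant region gene (ENSMUSG00000104213, chromosome 12, 113370224 to 113379944, minus strand, GRCm39), was at 451, 512, 503 and 303 CPM in titled control and 30.1, 22.8, 37.5 and 23.8 CPM in titled CT-26. CPM are counts relative to the scaled library total. No titled CT-26 library reached the lowest titled control library, and Ighd was lower by a log2 change of -3.94 (SE 0.25, edgeR adjusted p = 6.04e-12). Ighm, the IgM constant region gene (ENSMUSG00000076617, chromosome 12, 113382178 to 113386350, minus strand), was at 5753, 3700, 4631 and 6147 CPM against 6907, 3964, 5013 and 5527 CPM. Those ranges overlapped, and the log2 change of 0.08 (SE 0.25) missed the threshold (edgeR adjusted p = 0.816). Ighd counts per 100 Ighm counts were 9.37 ± 3.85 in titled control and 0.548 ± 0.150 in titled CT-26 (exact permutation p = 0.0286). In all, edgeR called 2740 of 6408 genes tested, which is 42.8%, with 1359 higher and 1381 lower in titled CT-26, and the median log2 change was -0.02. With library totals in place of TMM scaling that median became 0.35, with 1936 higher and 725 lower. Ighd was then at -3.62 and still called, and Ighm at 0.47 (edgeR adjusted p = 0.136).

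Genes whose products work with IgM or IgD were taken from a list of 13, of which 9 had enough counts to test. None rose, 5 fell and 4 missed the threshold, with a median log2 change of -0.54 in the list against -0.02 over all genes and 42.8% of all genes called. The signalling pair of the surface receptor fell together: Cd79a from 133 ± 10.2 to 36.7 ± 9.86 CPM (log2 change -1.86, SE 0.23, edgeR adjusted p = 1.52e-07) and Cd79b from 230.5 ± 48.3 to 56.6 ± 18.1 CPM (log2 change -2.02, edgeR adjusted p = 6.33e-08). Fcmr, the receptor for the Fc part of IgM, fell from 126 ± 21.5 to 33.5 ± 11.1 CPM (log2 change -1.92). Zfp318, which is needed for the long transcript that yields IgD, fell from 72.2 ± 14.98 to 35.0 ± 12.8 CPM (log2 change -1.04, SE 0.26, edgeR adjusted p = 0.00151), but with library totals the change was -0.72 and missed the threshold (adjusted p = 0.0536).

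The genes of the secreted form behaved less uniformly. Jchain, which joins secreted IgM into pentamers, went from 691 ± 119.5 to 475 ± 69.9 CPM (log2 change -0.54, SE 0.21, edgeR adjusted p = 0.0368). That call was lost with library totals (-0.15), without the filter on low counts (-0.47), and without titled control library 1 or 3 or titled CT-26 library 2, 3 or 4. Ell2, an elongation factor that favours the secreted form of IgM in plasma cells, was at 56.6 ± 3.28 and 70.7 ± 15.3 CPM (edgeR adjusted p = 0.261), though with library totals it passed at 0.68 (adjusted p = 0.0452). Cstf2, a cleavage factor of the same choice, was at 11.2 and 16.4 CPM (edgeR adjusted p = 0.248). Erp44 and Lman1, of IgM assembly and export, had log2 changes of -0.42 and 0.12 and missed the threshold. Fcamr and Pigr, further Fc receptors, and Cd5l, a partner of circulating IgM, were too low to test. Mzb1, a chaperone of plasma cells, was at 0 counts in every library, which is not read here as absence of its transcript.

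Marker genes of several spleen cell types moved with the title sets. Over all genes, 1381 of 6408 fell and 1359 rose, 42.8% in all. Of 8 B cell markers tested, 7 fell and Pax5 missed the threshold. Their summed level was 1562 to 2341 CPM in titled control and 307 to 648 CPM in titled CT-26. Cr2 and Fcer2a, B cell surface receptors listed here as follicular markers, fell with log2 changes of -4.04 and -3.67. Ccr7, a homing receptor of the same list, missed the threshold (log2 change -0.65, edgeR adjusted p = 0.0891). Whether these genes mark follicular cells apart from other B cells was not tested. Only 1 of 5 markers of marginal zone and B-1 cells had enough counts to test (Cd9, log2 change 0.34, not called). The summed level of the 5 was 59.1 to 74.7 CPM in titled control and 30.1 to 41.1 CPM in titled CT-26. Cd1d1, S1pr3 and Cd5, too low to test, were lower in titled CT-26 without overlap of the sets, and Zbtb32 overlapped. With no sorting named, the cell types behind these transcripts, Cd5 among them, cannot be told apart. Of 7 plasma cell markers 3 were tested and 1, Jchain, fell. All 5 T cell markers fell, with summed levels of 338 to 393 and 92.8 to 210 CPM. All 5 erythroid markers rose (294 to 445 and 1827 to 3122 CPM) and all 5 neutrophil markers rose (414 to 1078 and 3175 to 7663 CPM). Within these lists Ms4a1, which encodes the B cell surface protein CD20, fell by 3.93 on the log2 scale, and Ighd fell by 3.94. Spleen B cell markers were present in every library, while the part that cell composition has in the IgD values was not tested.

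By read number, large clonotypes were found in IgM and hardly in IgD, while by share of reads the isotypes overlapped in titled CT-26. IgM reads per clonotype were 2.96 ± 0.198 in titled control and 4.25 ± 0.121 in titled CT-26, and IgD reads per clonotype were 1.31 ± 0.0671 and 1.54 ± 0.1251. Over the 8 libraries the means were 3.605 for IgM and 1.43 for IgD, and IgM was higher in 8 of 8 (exact sign-flip permutation test, p = 0.00781, adjusted p = 0.0312 over 4 measures). Total reads enter this measure directly, and IgM had many more of them. The median clonotype of both isotypes had 1 read, and clonotypes of 1 read made up 68.9 to 72.9% of IgM and 74.6 to 83.3% of IgD clonotypes. The largest IgM clonotype took 2.04 to 3.08% of IgM reads in titled control and 2.96 to 4.80% in titled CT-26. The largest IgD clonotype took 0.148 to 1.01% and 1.03 to 7.79% of IgD reads. No IgD clonotype in any library reached 100 reads, whereas 73 to 105 IgM clonotypes in titled control and 138 to 195 in titled CT-26 did. Those large IgM clonotypes held 21.9 to 28.96% and 32.9 to 38.5% of IgM reads. A limit of 100 reads depends on depth. IgD had only 9056 to 12196 reads a library in titled control and 733 to 912 in titled CT-26.

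At an equal depth of 733 reads, the total of the smallest combination of library and isotype, IgD had more clonotypes than IgM in titled control and fewer in titled CT-26. IgD clonotypes in the titled control libraries numbered 712, 713, 713 and 706 of 733 reads, so that nearly every IgD read had a clonotype of its own. In titled CT-26 they numbered 515, 487, 510 and 439. The means were 711 ± 3.27 and 488 ± 34.7 (exact permutation p = 0.0286, adjusted p = 0.0381 over 8 tests). IgM clonotypes numbered 588, 586, 612 and 572 in titled control and 550, 535, 531 and 562 in titled CT-26, with means of 590 ± 16.8 and 544 ± 14.1 (exact permutation, adjusted p = 0.0381). IgM minus IgD was -122 in titled control and 56.7 in titled CT-26, and this difference between sets, 178 clonotypes, passed its own exact permutation test (adjusted p = 0.0381). It lost that call when any one titled control library was left out (174 to 185 clonotypes, adjusted p = 0.0571, exact), with clonotypes by CDR3 amino acids and with near-identical CDR3 merged. Pooled over sets, IgM and IgD were at 567 and 599 clonotypes and the test missed the threshold (exact p = 0.367, IgM higher in 4 of 8). The direction of that pooled difference, -32.4, turned without clonotypes of 1 read (44.6), with titled control as 1 sample (21.0) and without clonotypes found in more than 1 library (62.5), the last passing the exact test (adjusted p = 0.0156). The IgM difference between sets lost its call without clonotypes of 1 read (-11.2 clonotypes) and without titled control library 3 (-37.8) or titled CT-26 library 3 (-40.9), and the IgD difference without titled control library 3 (-223). The drawn IgD reads are nearly all there are in titled CT-26 and a small sample of those in titled control. Drawn IgM reads are a small sample in both sets. Repeat reads of 1 molecule could not be told apart. The IgD difference, IgM minus IgD and its change between sets therefore cannot be told apart from the share of reads drawn. At full depth, clonotypes of 1 read made up 76.8 to 83.3% of IgD clonotypes in titled control and 74.6 to 78.6% in titled CT-26.

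Clonality, which is 0 when all clonotypes are of equal size and approaches 1 when 1 clonotype dominates, was also taken at 733 reads, and by this measure IgM was the less even isotype in 7 of 8 libraries. IgD clonality was 0.00235 ± 0.00104 in titled control and 0.0439 ± 0.0179 in titled CT-26 (exact permutation, adjusted p = 0.0381). Here too the draw took nearly all IgD reads of titled CT-26 and a small sample of those of titled control. Repeat reads of the same molecule could not be told apart, and their part in this difference was not tested. IgM clonality was 0.0364 ± 0.00666 and 0.0480 ± 0.00904, with overlapping sets (exact p = 0.143, adjusted p = 0.163). IgM clonality was 0.0422 and IgD clonality 0.0231 over the 8 libraries, and the test missed the threshold after adjustment (exact p = 0.0469, adjusted p = 0.0625). Without clonotypes found in more than 1 library the difference turned to -0.00632. The exception among the 8 was titled CT-26 library 4, where IgD clonality was 0.0631 and IgM clonality 0.0373. The share of the 10 largest clonotypes was taken at full depth. They held 1.66% ± 0.585 of IgD reads in titled control and 11.9% ± 4.20 in titled CT-26 (exact permutation, adjusted p = 0.0381). Of IgM reads they held 13.2% ± 1.44 and 15.1% ± 2.83 (exact p = 0.286). This share depends on depth, and IgD had 9056 to 12196 reads a library in titled control and 733 to 912 in titled CT-26. The part of depth in the IgD difference was not tested.

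IgM alone allowed a far greater depth. At 118859 reads, titled control libraries had 42409 ± 1517 IgM clonotypes and titled CT-26 libraries 30832 ± 1257, and clonality was 0.156 ± 0.0120 and 0.195 ± 0.0118 (exact permutation, adjusted p = 0.0327). The sets did not overlap in either measure at this depth, which was chosen after the data were seen. Many IgM clonotypes lay next to a large one: when each CDR3 1 base from another with at least 10 times its reads was merged into it, titled CT-26 library 1 went from 44421 to 25106 IgM clonotypes. Whether such neighbours come from sequencing, amplification or somatic mutation was not tested.

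Few IgD clonotypes were also seen as IgM in their own library. The share was 8.82 to 10.6% of IgD clonotypes in titled control and 13.5 to 21.5% in titled CT-26. With 733 IgD and 118859 IgM reads drawn in every library it was 8.70 to 10.4% and 12.7 to 19.3%, so the sets stayed apart at equal depth. In the IgM of another library of the same set, 4.03 to 4.43% of titled control IgD clonotypes and 0.658 to 4.34% of titled CT-26 IgD clonotypes were found, and in the other set 0.219 to 1.94%. The IgD clonotypes without an IgM read numbered 6645 to 7899 in titled control and 358 to 463 in titled CT-26.

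The largest IgM clonotypes carried little IgD, and so did the other IgM clonotypes. Among the 100 largest IgM clonotypes of a titled control library, 39 to 65 had an IgD read, and together they had 0.505 to 0.655 IgD reads per 100 IgM reads. In titled CT-26, 5 to 19 had an IgD read and the ratio was 0.0198 to 0.204. The other IgM clonotypes had ratios of 0.737 to 1.08 in titled control and 0.0814 to 0.124 in titled CT-26. In titled CT-26 libraries 2 and 4 the ratio was higher in the 100 largest (0.194 and 0.204) than in the others (0.124 and 0.112). Over all IgM and IgD reads the ratio was 6.28 to 7.97 in titled control. Most of those IgD reads, 8109 to 10722 a library, belonged to clonotypes with no IgM read. Clonotype 1, with 2480 to 4590 IgM reads in a titled control library, had 33, 16, 10 and 44 IgD reads there. Clonotype 3 had 21, 14, 60 and 96 IgD reads, more in libraries 3 and 4 than in 1 and 2. Clonotype 2 had 72 IgD reads beside its 9370 IgM reads in titled CT-26 library 2.

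V segment usage differed between IgM and IgD in every library. IGHV5, the most used family in both isotypes here, made up 49.3% ± 5.13 of IgM clonotypes and 60.8% ± 7.32 of IgD clonotypes (SD, n = 8), and it was lower in IgM in 8 of 8 libraries (exact sign-flip permutation test, p = 0.00781, adjusted p = 0.00781 over 3 families). IGHV1, the largest family of the mouse genome, was at 13.5% of IgM and 18.4% of IgD clonotypes, also lower in IgM in 8 of 8 (adjusted p = 0.00781, exact). IGHV2 went the other way, with 1.69% and 1.43%, higher in IgM in 8 of 8 (adjusted p = 0.00781, exact).

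Families that were described without a test took up the room in IgM. IGHV4 was at 13.2 to 20.1% of IgM and 6.02 to 8.20% of IgD clonotypes in titled control, and at 26.6 to 30.3% and 12.3 to 21.3% in titled CT-26, higher in IgM in 8 of 8 libraries. IGHV11 was at 0.492 to 0.846% of IgM and 0.0755 to 0.102% of IgD clonotypes in titled control, and at 0.374 to 1.42% and 0.174 to 0.583% in titled CT-26, again higher in IgM in 8 of 8. Its IgD shares rest on few clonotypes. Over the 4 libraries of a set, IGHV11-1 and IGHV11-2 had 8 and 21 IgD clonotypes in titled control and 2 and 4 in titled CT-26. IGHV10 was higher in IgM in 7 of 8 and IGHV6 in 8 of 8, while IGHV3 was lower in IgM in 8 of 8.

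**Figure D3:**
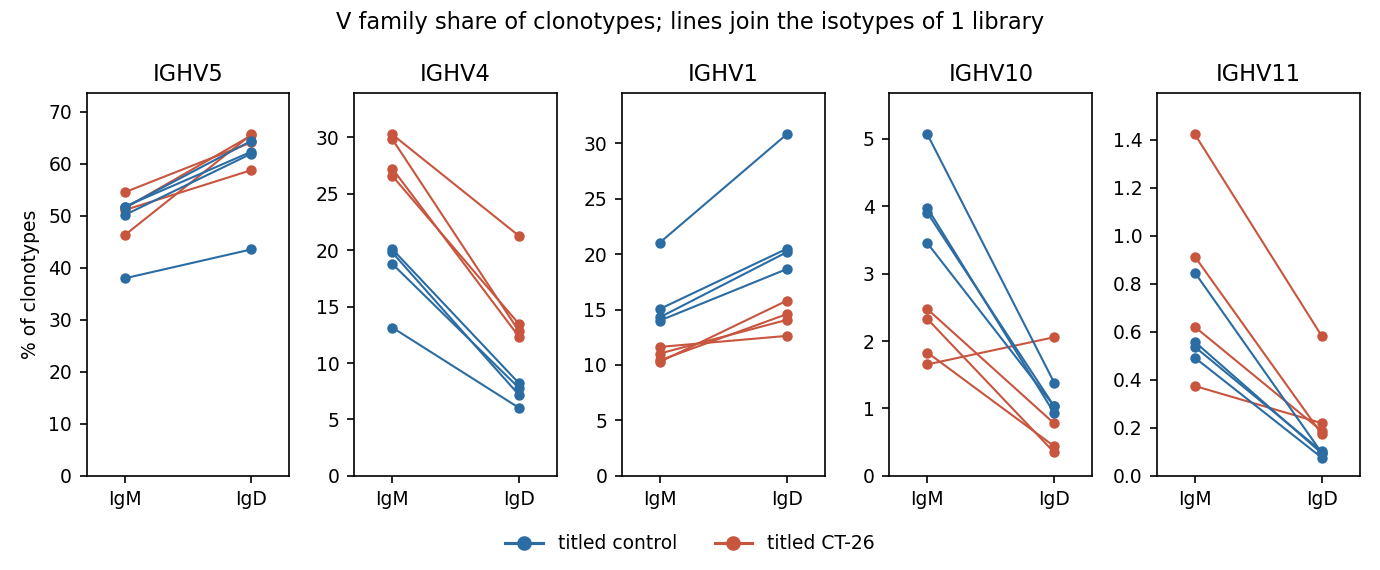
The plot shows the percent of clonotypes in the families IGHV5, IGHV4, IGHV1, IGHV10 and IGHV11 for IgM and IgD in every library, joined by a line within a library and coloured by title set. IGHV5 and IGHV1 lie higher in IgD in all 8 libraries, and IGHV4 lies higher in IgM in all 8.

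Single V segments were tested in the same libraries with edgeR on clonotype numbers, IgM against IgD within a library. Of 92 segments, 54 were called, which is 58.7%, with 28 higher and 26 lower in IgM and a median log2 difference of 0.05. Higher in IgM were both segments of IGHV4, both of IGHV11, all 3 of IGHV10 and both of IGHV7. Titled control libraries 1 to 4 had IGHV4-1 in 15.1, 16.2, 10.8 and 15.9% of IgM clonotypes and 6.73, 7.17, 4.61 and 5.75% of IgD clonotypes. Titled CT-26 libraries had it in 26.8, 22.7, 23.2 and 22.9% of IgM and 11.3, 10.6, 12.9 and 15.4% of IgD clonotypes. IgM exceeded IgD in every library, by a log2 difference of 1.13 (SE 0.09, edgeR adjusted p = 6.89e-10). IGHV4-2 had a log2 difference of 1.38 (SE 0.15, edgeR adjusted p = 1.14e-07).

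Of the segments known from B-1 and natural antibodies, those of IGHV11 and IGHV7 were higher in IgM. IGHV11-2 was higher in IgM by 2.44 on the log2 scale (SE 0.23, edgeR adjusted p = 9.87e-09) and IGHV11-1 by 2.74 (SE 0.34, adjusted p = 5.51e-07), each in 8 of 8 libraries. The names of the pair were not stable between libraries. Titled control library 3 had 361 IgM clonotypes of IGHV11-1 and 17 of IGHV11-2, while titled control library 1 had 19 and 248, and clonotype 5, named IGHV11-2 elsewhere, was named IGHV11-1 in titled control library 3. The family as a whole does not depend on this choice of name, but its IgD share in titled CT-26 rests on 2 clonotypes of IGHV11-1 and 4 of IGHV11-2. IGHV12-3 had 43 IgM and 8 IgD clonotypes in titled control, which were 0.0226% of IgM and 0.0251% of IgD clonotypes, and 41 IgM and 0 IgD in titled CT-26, below the minimum for the test between isotypes. A count of 0 there allows up to 3 reads, which is 0.329 to 0.409% of the IgD reads of those libraries. IGHV7-1 was higher in IgM by 1.21 (SE 0.23, edgeR adjusted p = 7.91e-05, 7 of 8 libraries), and lost the call with the titled control libraries counted as 1 sample.

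The large families held segments of both directions: 9 segments of IGHV1 were higher and 16 lower in IgM of 39 tested, and 5 of IGHV5 were higher and 7 lower of 17. IGHV10S3 and IGHV10-3 were higher in IgM by 1.98 (SE 0.16, edgeR adjusted p = 7.92e-10) and 2.35 (SE 0.21, adjusted p = 5.92e-09). On the IgD side, IGHV1-50 made up 0.674 to 1.22% of IgM and 1.64 to 3.01% of IgD clonotypes in titled control, and 0.463 to 0.542% and 1.36 to 1.97% in titled CT-26. It was higher in IgD in 8 of 8 libraries (log2 difference of IgM to IgD -1.34, SE 0.12, edgeR adjusted p = 5.92e-09). IGHV3-2 (-1.95), IGHV1-67 (-1.48), IGHV1S36 (-1.36), IGHV1-76 (-1.09) and IGHV5-6-5 (-0.76) were also lower in IgM, with edgeR adjusted p-values between 1.14e-07 and 1.56e-06. All 13 segments named here but IGHV7-1 kept their call under every alternative in which they could be tested. At 1 draw of 733 reads only IGHV4-1, IGHV4-2 and IGHV5-6-5 had enough clonotypes, and without clonotypes of 1 read IGHV1-67 and IGHV3-2 did not.

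These percentages rest on how the authors' program named V segments. Between 10.2 and 12.6% of IgM CDR3, holding 46.8 to 70.3% of IgM reads, appeared with more than 1 V name in the same library. Segment names are printed as deposited, and the reference behind them is not known here.

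Between title sets, IGHV4-1 rose and many smaller IgM segments fell as a share of clonotypes, with counts that depended on the scaling. Of 107 segments tested in IgM, edgeR called 33, which is 30.8%, with 2 higher and 31 lower in titled CT-26. The median over all segments was -0.64. With TMM scaling, which moved that median to -0.13, 5 were called, 4 higher and 1 lower, and DESeq2 called 12, 9 higher and 3 lower. There were 0 calls by edgeR with the titled control libraries counted as 1 sample (24 at an unadjusted p under 0.05) and 0 without titled CT-26 library 4 (40 unadjusted). Without titled CT-26 library 2 there were 4 calls, and without titled CT-26 library 3 there were 16.

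IGHV4-1 was the abundant segment that rose. Its IgM share did not overlap between sets, at 10.8 to 16.2% and 22.7 to 26.8% of clonotypes (log2 change 0.72, SE 0.17, edgeR adjusted p = 0.0184). That call was lost under TMM scaling, where the change was 1.20, without clonotypes of 1 read (0.60), with titled control counted as 1 sample (0.71) and without titled CT-26 library 4 (0.74). IGHV12-1-1 also rose, from 0.0423% ± 0.00521 to 0.110% of IgM clonotypes (log2 change 1.38, SE 0.38). IGHV10S3 fell from 2.56% ± 0.444 to 1.05%, and IGHV10-3, IGHV2-2-1, IGHV14-1, IGHV1-15 and IGHV6-6 fell with log2 changes of -1.18, -2.48, -1.34, -1.02 and -0.98, all at an edgeR adjusted p of 0.0184. Under TMM scaling IGHV10S3, IGHV10-3, IGHV14-1, IGHV1-15 and IGHV6-6 were at -0.76, -0.61, -0.72, -0.49 and -0.39 and were not called, nor were they by DESeq2. These 5 and IGHV2-2-1 also lost their calls without clonotypes of 1 read, with titled control as 1 sample and without titled CT-26 library 4, and IGHV12-1-1 under the last 2 of these and without titled CT-26 library 2. IGHV11-1 (0.07), IGHV11-2 (0.63), IGHV12-3 (0.18) and IGHV7-1 (-0.76) were not called in IgM.

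In IgD, 4 of 50 segments were called between sets, which is 8.00%. IGHV4-1 rose there too (log2 change 1.04, SE 0.22, edgeR adjusted p = 0.000176), though without clonotypes of 1 read it was at 0.53 and not called (adjusted p = 0.448). IGHV5-6 was found in 351 IgD clonotypes of titled control, 1.04 to 1.28% of each library, and in 1 IgD clonotype of all titled CT-26 libraries together (edgeR adjusted p = 0.000781). IGHV1S34 went from 1.761 to 2.204% of IgD clonotypes in titled control to 0.521 to 0.877% in titled CT-26 (log2 change -1.53, SE 0.46, edgeR adjusted p = 0.0173), and IGHV1-5 was called at -1.09 (SE 0.37, adjusted p = 0.0471). IGHV1-5 lost its call under 12 alternatives, among them TMM scaling (-0.80) and DESeq2 (-0.93), and IGHV1S34 by DESeq2 (-1.37), without clonotypes of 1 read (-1.33) and without titled control library 1 (-1.52) or titled CT-26 library 1 (-1.47) or 2 (-1.42). The difference between IgM and IgD itself differed between sets for 3 of 92 segments, which is 3.26%. They were IGHV5-6 (3.87 on the log2 scale, SE 0.81) and IGHV1S34 (1.52, SE 0.33), both at an edgeR adjusted p of 0.00655, and IGHV5-9-2 (-3.37, SE 0.89, adjusted p = 0.0317). IGHV5-6 in IgM was at 1.53 to 2.14% and 0.854 to 1.63% of clonotypes, so its scarcity in titled CT-26 was much greater in IgD than in IgM. Without clonotypes of 1 read the IGHV5-6 value was 1.36 and was not called. IGHV5-9-2 rests on 17 and 9 IgD clonotypes and was lost under TMM scaling.

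IGHV1 and IGHV2 were lower in titled CT-26 in both isotypes. IGHV1 went from 16.1% ± 3.32 to 10.8% ± 0.620 of IgM clonotypes and from 22.5% ± 5.58 to 14.3% ± 1.31 of IgD clonotypes (exact permutation p = 0.0286, adjusted p = 0.0429 over 6 tests, both). IGHV2 went from 2.44% to 0.9505% in IgM and from 2.14% to 0.719% in IgD (adjusted p = 0.0429, exact, both), and titled control library 3 set much of the size: without it the differences were -0.644 and -0.591 percentage points. In both families and both isotypes the exact test lost its call when titled control library 3 or any one of the 4 titled CT-26 libraries was left out. IGHV5 was at 47.9% and 50.8% of IgM and 58.1% and 63.5% of IgD clonotypes and missed the threshold (exact p = 0.6 and p = 0.429). Titled control library 3 stood apart from its set in these families, with 37.96% IGHV5 in IgM against 50.1 to 51.7% in the other 3.

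Use of IGHJ2 and IGHJ4 separated the sets in IgD and not in IgM. IGHJ2 was in 27.5, 27.7, 28.7 and 27.2% of IgD clonotypes in titled control libraries 1 to 4 and in 40.6, 36.3, 43.4 and 53.5% in titled CT-26 libraries 1 to 4. The sets did not overlap, at 27.8% ± 0.643 and 43.4% ± 7.32 (exact permutation p = 0.0286, adjusted p = 0.0457 over 8 tests). With about 500 clonotypes a library, the exact 95% binomial interval was 48.8 to 58.2% for titled CT-26 library 4 and 36.3 to 45.0% for library 1. IGHJ4 fell from 34.5% ± 0.421 to 24.7% ± 3.63 of IgD clonotypes and IGHJ3 from 26.8% to 22.3% (adjusted p = 0.0457, exact, both), and IGHJ1 was at 10.96% and 9.58% (exact p = 0.4).

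In IgM, IGHJ1 and IGHJ3 were the segments that differed. IGHJ1 rose from 11.1% ± 1.22 to 14.3% ± 1.44 and IGHJ3 fell from 30.7% ± 1.98 to 26.9% ± 1.67 (adjusted p = 0.0457, exact, both). IGHJ2 was at 28.9% and 27.7% (exact p = 0.4) and IGHJ4 at 29.3% and 31.1% (exact p = 0.457). Accordingly the IgM minus IgD difference changed between sets for IGHJ2, from 1.10 to -15.7 percentage points, for IGHJ4, from -5.16 to 6.41, and for IGHJ1, from 0.160 to 4.69 (exact permutation, adjusted p = 0.0381 for each). These 3 calls were lost when any one titled control library was left out and without clonotypes of 1 read. Within libraries, IGHJ3 was higher in IgM in 8 of 8, at 28.8% against 24.5% (exact sign-flip permutation p = 0.00781, adjusted p = 0.0312). IGHJ1 (6 of 8, adjusted p = 0.109), IGHJ2 (5 of 8, adjusted p = 0.156) and IGHJ4 (exact p = 0.805) missed the threshold of the exact test. The calls between sets for J segments of either isotype were kept without titled CT-26 library 4 and lost when any other single library was left out, the IGHJ2 difference in IgD lying between 12.3 and 18.1 percentage points. Without clonotypes of 1 read no J segment of either isotype was called between sets, with IGHJ2, IGHJ3 and IGHJ4 in IgD at 9.92, -0.815 and -7.00 and IGHJ1 and IGHJ3 in IgM at 2.77 and -4.01 percentage points. IGHJ3 between isotypes lost its call whichever library was left out (3.48 to 4.79).

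**Figure D4:**
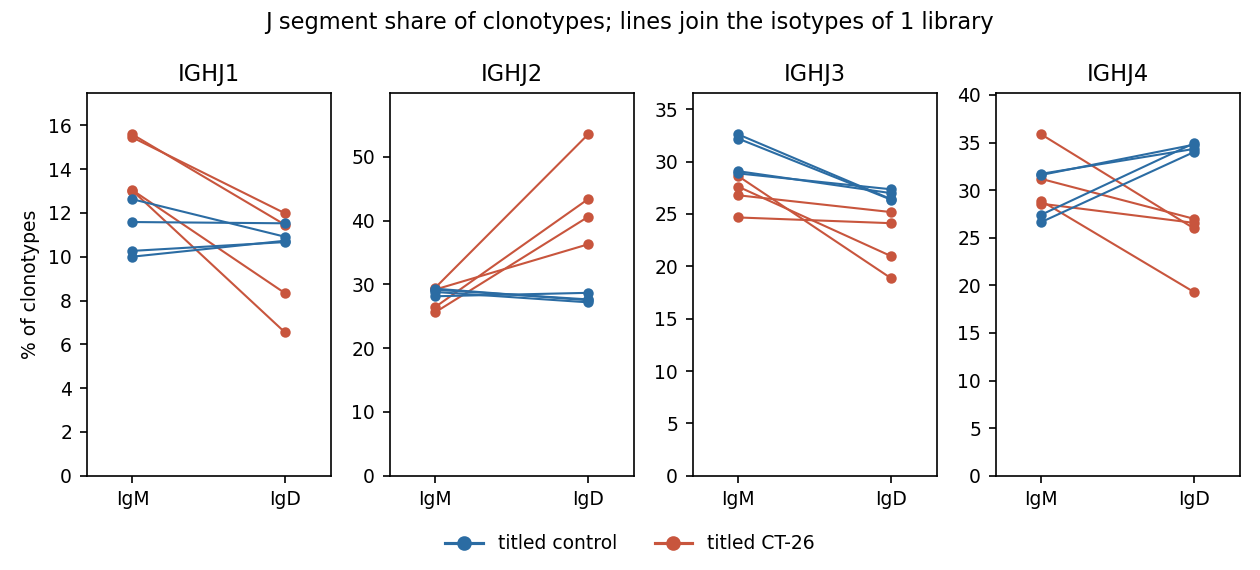
The plot shows the percent of clonotypes that use each of the 4 IGHJ segments, for IgM and IgD in each library, with a line joining the isotypes of a library and colours for the title sets. IGHJ2 in IgD lies at 27.2 to 28.7% in titled control and at 36.3 to 53.5% in titled CT-26, while IGHJ2 in IgM overlaps between sets.

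CDR3 was shorter in IgM than in IgD. Per clonotype, IgM had 13.38, 13.36, 13.33 and 13.43 amino acids in titled control libraries 1 to 4 and 13.29, 13.30, 14.12 and 13.42 in titled CT-26 libraries 1 to 4. IgD had 14.00, 13.98, 13.89 and 14.02 against 13.70, 13.74, 13.87 and 13.68. Over the 8 libraries the means were 13.45 and 13.86, a difference of -0.41, with IgM shorter in 7 of 8 (exact sign-flip permutation p = 0.0156, adjusted p = 0.0208 over 4 measures). With clonotypes of 1 read left out the difference was -0.39, and with titled control as 1 sample -0.29, and neither passed the threshold. IgM was the longer isotype in titled CT-26 library 3. There, 2846 IgM clonotypes, 7.09% of the total, had a CDR3 of 22 amino acids, 1351 of them within 2 bases of 1 IGHV5-17 and IGHJ4 clonotype with 6880 reads. The mean length of its other IgM clonotypes was 13.52.

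The difference lay at both ends of the length range. CDR3 of 10 or fewer amino acids made up 13.0% of IgM and 8.84% of IgD clonotypes in titled control and 10.6% and 9.38% in titled CT-26, higher in IgM in 8 of 8 libraries. CDR3 of 17 or more made up 10.1% and 15.6% in titled control and 9.85% and 12.2% in titled CT-26, higher in IgM in 1 of 8. Within clonotypes of the same J segment, IgM stayed shorter than IgD, by 0.54 amino acids for IGHJ1 (7 of 8 libraries), 0.48 for IGHJ2 (8 of 8), 0.74 for IGHJ3 (8 of 8) and 0.30 for IGHJ4 (7 of 8). Within V families the difference was -0.36 in IGHV1 and -0.39 in IGHV5 (7 of 8 each), and -0.03 in IGHV4 (4 of 8). The IGHV4 value split by title set, at -0.45 to -0.05 in the titled control libraries and 0.05 to 0.55 in the titled CT-26 libraries.

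**Figure D5:**
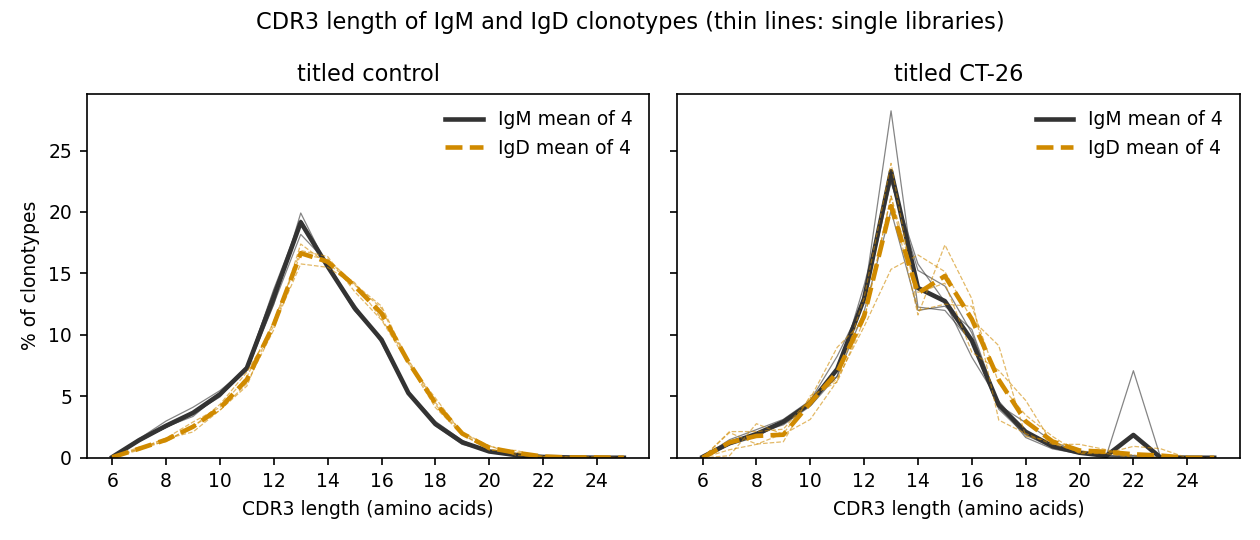
The plot shows the percent of clonotypes at each CDR3 length in amino acids, for IgM and IgD, with thick lines for the mean of the 4 libraries of a title set and thin lines for single libraries. IgM has more clonotypes of 10 or fewer amino acids in both sets, and the peak at 22 amino acids in titled CT-26 IgM comes from library 3.

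By title set, IgM CDR3 length was 13.38 ± 0.0435 and 13.53 ± 0.396 (exact permutation p = 0.8286), and the difference of 0.15 became -0.04 without titled CT-26 library 3. IgD CDR3 was 13.97 ± 0.0581 in titled control and 13.75 ± 0.0857 in titled CT-26, without overlap, and missed the threshold after adjustment (exact p = 0.0286, adjusted p = 0.0762). Net charge per CDR3, counting arginine and lysine against aspartate and glutamate, was -0.115 in IgM and -0.215 in IgD, less negative in IgM in 8 of 8 libraries (exact sign-flip permutation, adjusted p = 0.0208). Tyrosine, the amino acid most used in antigen contacts, made up 16.9% of IgM and 17.2% of IgD CDR3 residues, lower in IgM in 7 of 8 (adjusted p = 0.0208, exact). Both calls were lost without clonotypes of 1 read, at differences of 0.0633 and -0.118. Neither composition measure passed the test between sets. The D segment families, given without a test, were IGHD2 in 50.4 to 51.9% of IgM and 48.1 to 50.9% of IgD clonotypes in titled control. In titled CT-26, IGHD2 was in 44.9 to 50.7% of IgM and 52.63 to 54.95% of IgD clonotypes.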

How the data were processed

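Members and gene lists were chosen with earlier results of these data known. The deposited BCR tables list each CDR3 with its read count and a fraction. The fractions deposited by the authors were not used. Of the program behind them, nothing is stated in the sources used here. The RNA tables were deposited as counts per gene, made with featureCounts 2.0.1 on GENCODE M29 without strand, per the file headers. Trimmomatic 0.39, STAR 2.7.10a and the builds GRCm39 and GRCm38 stand in the submitters' processing notes. The Takara MiniBEST kit was used for RNA and a Takara SMARTer mouse TCR kit is named for libraries, per the labels.

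Entries of equal V, J and CDR3 were joined. BCR libraries held 731857 to 909745 reads and RNA libraries 735298 to 1970950 counts. Sets were compared by exact two-sided permutation over 70 assignments, and IgM with IgD by exact sign flips over 256 patterns of 8 libraries. Adjustment was by Benjamini and Hochberg at 0.05, within each family of measures. Equal depth values are means of 20 draws. The quasi-likelihood test of edgeR, with robust fitting, was run on V segments that averaged 10 clonotypes or more (library totals, no TMM) and on genes (filterByExpr, TMM), and DESeq2 was an alternative. Named are up to 6 V segments of smallest p per direction in each of 4 V fits, 4 segments of B-1 antibodies, all IGHJ, families IGHV1, IGHV2 and IGHV5, and a fixed list of 13 partner genes. IGHV4, IGHV10, IGHV11, IGHV6 and IGHV3 as families, and marker genes, were named after their values were seen. A result of the follicular marker list is not reported here.

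On simulated counts the V fits found 100% (IgM), 58.3% (IgD), 73.9% (IgM against IgD) and 13.0% (difference between sets) of 2-fold changes, with 0, 1, 3 and 0 false calls. These counts were drawn with a fixed spread between libraries that was not taken from the data. In the data the SE of the IgM change between sets was 1.22 for IGHV11-2 and 1.53 for IGHV11-1, so the rates need not hold there. An uncalled segment may still differ 2-fold. The RNA fit found 20% of 2-fold and 90% of 4-fold changes, also on counts with a fixed spread. Replicate numbers were not treated as pairs: no label ties them, and deviations of same-numbered libraries correlated between -0.24 and 0.0774. In R 4.3.3, DESeq2 1.42.0, limma 3.58.1 and edgeR 4.0.16 were used. In Python 3.11.15, the packages were scipy 1.17.1, pandas 2.3.3, matplotlib 3.10.9 and numpy 2.4.6.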

Additional observations from a re-analysis of the deposited data

Results flagged for a closer look

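In 88 groups of 4 libraries the highest or lowest library was compared with the other 3, and chance sets about 1 in 20 such groups apart. Titled control library 3 stood apart in the V families: IGHV1 made up 21.0% of its IgM clonotypes (14.0 to 15.1% in the other 3) and 30.8% of its IgD clonotypes (18.6 to 20.5%), IGHV2 4.96% of IgM (1.41 to 1.71%) and 4.64% of IgD (1.08 to 1.43%), and IGHV5 37.96% of IgM (50.1 to 51.7%) and 43.5% of IgD (61.9 to 64.4%). It also had 2.66 IgM reads per clonotype, against 3.04 to 3.08. Both isotypes of that library thus departed in the same direction in each of the 3 families.

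Titled CT-26 library 3 had an IgM CDR3 length of 14.12 amino acids per clonotype (13.29 to 13.42 in the other 3) and 14.03 per read (13.14 to 13.27). Titled CT-26 library 4 had 19.3% IGHJ4 in IgD, against 25.98 to 26.99%. Titled control library 4 had 706.35 IgD clonotypes at 733 reads, against 712.45 to 713.35, and 51.7 CPM of Ell2, against 58.0 to 58.7.

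The difference between IgM and IgD differed between title sets in the exact permutation test for 6 measures: clonotypes at equal depth (by 178), reads per clonotype (by 1.07), the percent of reads in the 10 largest clonotypes (by -8.29 percentage points), IGHJ1 (by 4.53), IGHJ2 (by -16.8) and IGHJ4 (by 11.6). For the 10 largest clonotypes, IgM minus IgD was 11.6 percentage points in titled control and 3.26 in titled CT-26. That share and reads per clonotype were taken at full depth, and both depend on read numbers, which differed between isotypes and sets. For clonotypes at equal depth, the draw took nearly all IgD reads of titled CT-26 and a small sample of the others. Each of these 6 lost its call when any one titled control library was left out. Those of the IGHJ segments also lost it without clonotypes of 1 read, and the other 3 with clonotypes by CDR3 amino acids and with near-identical CDR3 merged. It also differed in the edgeR test for the V segments IGHV5-6 (by 3.87 on the log2 scale), IGHV1S34 (by 1.52) and IGHV5-9-2 (by -3.37).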

How the results depend on the processing

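No called result changed direction. IgM minus IgD clonotypes turned from -32.4 to 62.5, past the threshold, without shared clonotypes, and to 44.6 without clonotypes of 1 read and 21.0 with titled control as 1 sample, uncalled in both. IgM minus IgD clonality turned from 0.0191 to -0.00632 without shared clonotypes, and the IgM CDR3 length difference between sets from 0.15 to -0.04 without titled CT-26 library 3, both uncalled. IgD reads per 100 IgM reads (-6.63 to -7.19 with 1 library left out) and the RNA gene count (2517 to 2948) kept their calls. Without clonotypes of 1 read, the difference between sets was -11.2 in IgM clonotypes, 9.92 for IGHJ2 in IgD, -2.64 and -4.59 for IGHV1 in IgM and IgD, and -10.8 for the IGHJ2 interaction; IgM minus IgD was -0.39 in CDR3 length and 3.38 for IGHJ3. V calls were then 0 in IgM (17 at an unadjusted p under 0.05), 0 in IgD (0 unadjusted) and 1 for the interaction.

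Other settings that moved a call were a smaller equal depth (IgM clonotypes -16.6), shared clonotypes left out (IgM clonality 0.0153, IGHJ2 in IgD 15.9), near-identical CDR3 merged (IgM clonality 0.0301, IgM minus IgD clonality 0.0382, IGHV1 -4.63 and -8.74, IgM V calls 20), the greater IgM depth (clonality 0.0399), the 10 largest clonotypes left out (IgM clonality 0.00540), and CDR3 from C to W (IGHJ3 3.57). With titled control as 1 sample, IgM minus IgD was -0.29 in CDR3 length, 4.48 for IGHJ3 and -12.2 for IGHV5, with V calls of 26 between isotypes and 0 between sets in IgM. With 1 draw at equal depth, V calls were 2, 1, 8 and 0 (1 unadjusted) for IgM, IgD, IgM against IgD and the interaction. DESeq2 called 12, 2 and 35 in the first 3, and TMM gave 5 in IgM. With the replicate number as a block (replicate block), V calls were 0 in IgM (39 unadjusted), 4 in IgD, and 2668 genes were called in RNA.

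With 1 library left out, the lowest and highest values between sets were -51.3 and -37.8 for IgM clonotypes, -233 and -207 for IgD clonotypes, 0.00842 and 0.0151 for IgM clonality, 0.0352 and 0.0469 for IgD clonality, 12.3 and 18.1 for IGHJ2 in IgD, -5.96 and -3.62 for IGHV1 in IgM, and -9.55 and -5.50 in IgD. For IgM minus IgD they were -54.6 and -17.8 clonotypes, 0.0163 and 0.0255 in clonality, -0.50 and -0.37 in CDR3 length, 3.48 and 4.79 for IGHJ3, -12.3 and -10.3 for IGHV5, and -19.7 and -14.1 for the IGHJ2 interaction. V calls lay between 0 and 36 in IgM, 2 and 4 in IgD, 50 and 55 between isotypes, and 2 and 3 for the interaction. With 3 libraries against 4 the smallest exact p is 0.0286 before adjustment. The causes were not tested. IgD depth limits the titled CT-26 set: 733 to 912 reads a library.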
